A study of Mus musculus with 6 samples.

Results

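Macrophages that take up lipid in fat, in arterial plaque, in the brain and in healing tissue share a set of transcripts led by Trem2 and Spp1. This set is described here as 10 genes, Trem2, Gpnmb, Spp1, Fabp4, Fabp5, Lgals3, Cd9, Cd63, Lpl and Plin2, chosen by symbol from a table of 15168 mouse genes. All 10 were in the table and all 10 were among the 11878 genes that passed the filter on low counts. In Day 3 wound macrophages from aged mice, 6 of the 10 (Lpl, Gpnmb, Fabp5, Trem2, Cd63 and Spp1) fell, 1 (Plin2) rose, and 3 (Fabp4, Lgals3 and Cd9) were not called. Over all genes tested, 7.97% were called lower and 9.73% higher. The fall ran from 1.81-fold for Spp1 to 3.99-fold for Lpl, and Plin2 was 1.79-fold higher in aged samples, so the genes of this set did not change in 1 direction.

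The study compared macrophages in young and aged skin wounds by bulk RNA sequencing. The young group held 3 samples from mice aged 12 weeks and the aged group 3 samples from mice aged 24 months. All mice were wild-type females of the C57BL6/J strain and each received a pair of full-thickness excisions on the back, 10 mm across, which were collected 3 days later. Live cells positive for CD45, CD11b, CD64 and F4/80 were sorted, and cDNA was made with the SMART-Seq v4 kit. The samples carry set letters A, B and C in each age group. Animals were kept at 1 of 2 facilities named in the labels, but the facility of each sample and the number of mice behind it are not given in the sources used here. The p-values therefore measure the spread between these samples, which may be technical in part. In bulk RNA a lower level can come from fewer cells of a type or from less RNA per cell, and these cannot be told apart.

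The libraries held between 15270103 and 17927483 counts, so that 1 count was worth 0.0553 to 0.0701 CPM (count per library, scaled by the trimmed mean of M-values). Of the genes that mark the sort, Itgam (CD11b) was 0.99 higher and Adgre1 (F4/80) 0.69 lower on the log2 scale in aged samples, at adjusted p = 0.00735 and 0.0292. The call of Adgre1 ended without young B, young C, aged A or aged C (adjusted p = 0.0900, 0.113, 0.0751 and 0.109). Ptprc (CD45) and Fcgr1 (CD64) were not called. The aged B library stood apart with 1259 counts of the keratinocyte gene Krt14, against 0 to 14 in the other libraries, so the calls kept without it are counted for each gene group.

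TREM2 is a surface receptor for lipids, lipoproteins and cell debris that signals through the adaptor TYROBP (DAP12) and the kinase SYK. In macrophages that ingest lipid, TREM2 signalling is known to be needed for much of the transcript set described here. GPNMB is a transmembrane glycoprotein of late endosomes and lysosomes, and SPP1 (osteopontin) is a secreted ligand of CD44 and of integrins. FABP4 and FABP5 carry fatty acids in the cytosol, LPL splits triglyceride in lipoproteins, and PLIN2 coats the lipid droplets in which the fat is stored. CD9 and CD63 are tetraspanins, CD63 being abundant on late endosomes, and LGALS3 (galectin-3) binds galactose-containing glycans on cell surfaces and on damaged lysosomes.

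In the RefSeq promoter table (GRCm38.p6), 7 of the 10 genes had an entry, and Fabp4, Fabp5 and Lpl were those without. The 250 bases before the start site are shown for the receptor Trem2, the lysosomal gene Gpnmb and the ligand Spp1, all of which fell, and for Plin2, which moved the other way. Each runs 5′ to 3′ on the strand of its gene. Capitals mark a match to CCAAT (the CCAAT box) or to AGGTCA (a nuclear receptor half-site), read on either strand, where ATTGG and TGACCT are their reverse complements. The windows are chr17:48346151-48346400 on the plus strand for Trem2, chr6:49036268-49036517 plus for Gpnmb, chr5:104434861-104435110 plus for Spp1 and chr4:86670060-86670309 minus for Plin2.
Trem2: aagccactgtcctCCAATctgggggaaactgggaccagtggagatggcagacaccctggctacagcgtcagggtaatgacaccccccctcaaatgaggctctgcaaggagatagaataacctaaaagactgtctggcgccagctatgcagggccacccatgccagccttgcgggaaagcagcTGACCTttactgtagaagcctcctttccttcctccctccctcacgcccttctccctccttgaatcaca
Gpnmb: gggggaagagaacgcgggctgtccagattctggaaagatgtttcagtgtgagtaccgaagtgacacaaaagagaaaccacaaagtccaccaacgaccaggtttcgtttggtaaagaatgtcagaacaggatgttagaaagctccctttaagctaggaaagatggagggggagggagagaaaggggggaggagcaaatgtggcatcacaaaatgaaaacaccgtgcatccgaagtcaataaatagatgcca
Spp1: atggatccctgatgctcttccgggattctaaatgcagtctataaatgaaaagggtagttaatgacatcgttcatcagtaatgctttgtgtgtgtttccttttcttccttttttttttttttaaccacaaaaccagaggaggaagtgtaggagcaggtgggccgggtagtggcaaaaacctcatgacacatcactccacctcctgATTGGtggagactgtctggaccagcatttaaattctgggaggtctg
Plin2: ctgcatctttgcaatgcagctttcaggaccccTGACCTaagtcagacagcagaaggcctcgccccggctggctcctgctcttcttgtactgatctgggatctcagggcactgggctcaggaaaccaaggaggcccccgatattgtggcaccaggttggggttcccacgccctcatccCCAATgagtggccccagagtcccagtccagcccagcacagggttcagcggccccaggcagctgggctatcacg
The motifs searched, on both strands, were the E-box CACGTG, the half-site AGGTCA, the AP-1 site TGACTCA and the CCAAT box. Trem2 held AGGTCA on the opposite strand at position -68 from the start and CCAAT at -237. Plin2 held AGGTCA on the opposite strand at -218 and CCAAT at -73. Spp1 held CCAAT on the opposite strand at -46, and Lgals3, whose window is not printed, at -167. The RefSeq starts used for Lgals3 and Cd63 lie 6109 and 8356 bases inside the gene bounds of the deposited table, so their windows belong to internal starts. Neither CACGTG nor TGACTCA was found in the 7 windows. Over the same 250 bases of 32851 promoters, AGGTCA was found in 14.0%, CCAAT in 33.8%, CACGTG in 6.02% and TGACTCA in 4.46%. A match describes the letters only. Trem2, which fell, and Plin2, which rose, thus both held AGGTCA and CCAAT.

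**Figure D1:**
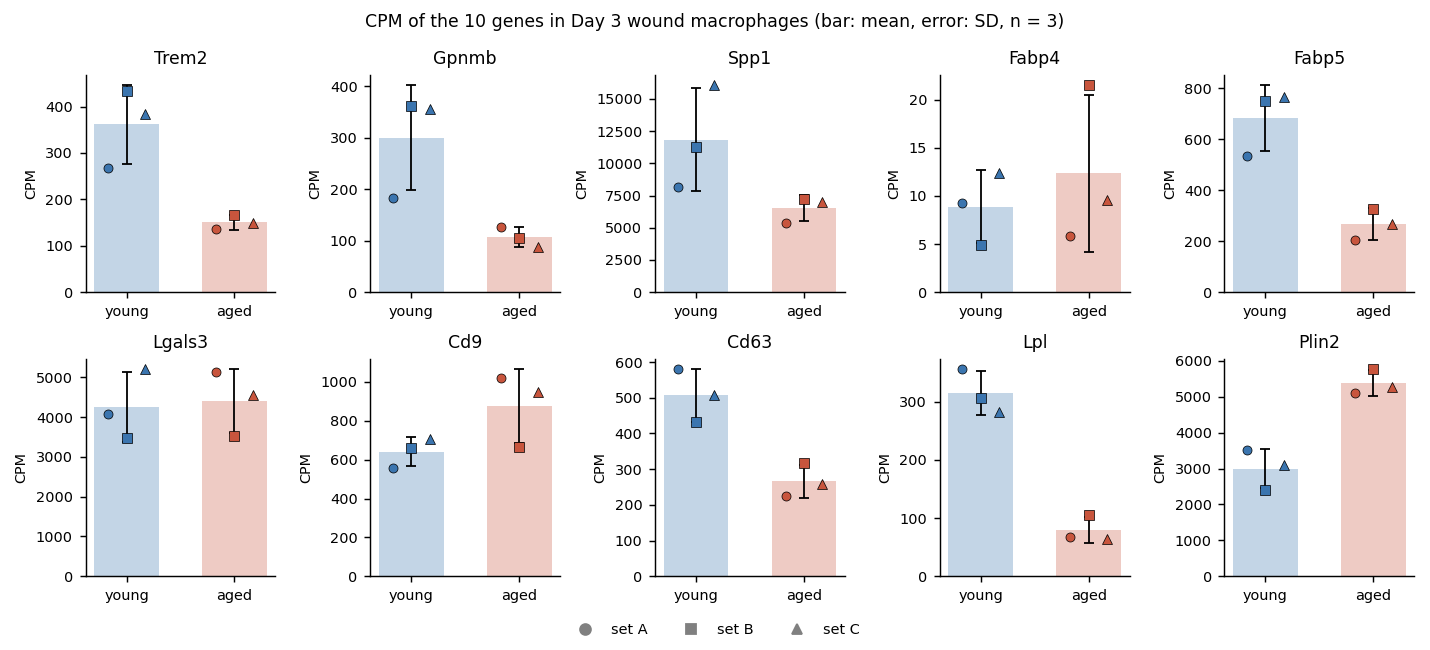
Library-scaled counts (CPM, y axis, starting at 0) of the 10 genes in young (blue) and aged (red) samples, with symbols for sets A, B and C; bars are means and lines SD, n = 3. Trem2, Gpnmb, Spp1, Fabp5, Cd63 and Lpl lay lower in all 3 aged samples than in any young sample, and Plin2 lay higher.

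Trem2 (chr17:48346401-48354148, plus strand, mm10) was measured at 268, 434 and 383 CPM in young samples A, B and C and at 136, 167 and 148 CPM in aged samples A, B and C. The groups did not overlap, and young A lay closest to the aged samples. The mean fell from 362 ± 85.0 to 150.4 ± 15.9 CPM (SD, n = 3 each), a log2 fold change of -1.27 (SE 0.20, 95% interval -1.72 to -0.81, adjusted p = 0.00627 by the quasi-likelihood test of edgeR, adjusted by Benjamini-Hochberg). The call held whichever library was left out, with a highest adjusted p of 0.0449 when young C was left out.

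Gpnmb (chr6:49036546-49070930, plus strand) was measured at 182, 363 and 356 CPM in young A, B and C and at 126, 106 and 87.5 CPM in aged A, B and C. Young B and C were about alike, young A was the low sample of its group, and every aged sample lay below it. The mean fell from 300.2 ± 102.4 to 106 ± 19.3 CPM, that is by a log2 fold change of -1.50 (SE 0.27, interval -2.08 to -0.91, adjusted p = 0.00846). Leaving out young C gave an adjusted p of 0.0547 and ended the call, which held without each of the other libraries.

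Spp1 (chr5:104435118-104441051, plus strand) took the most counts of the 10 in every sample, though in aged A it stood close to Lgals3 and Plin2. It was measured at 8201, 11233 and 16086 CPM in young A, B and C and at 5393, 7217 and 6989 CPM in aged A, B and C. The highest aged sample, aged B, stood below the lowest young sample, young A, and the young samples were spread more widely than the aged. The mean fell from 11840.0 ± 3978 to 6533 ± 994 CPM, that is by a log2 fold change of -0.86 (SE 0.26, interval -1.44 to -0.28, adjusted p = 0.0475). This call was the least stable of the 7. Its adjusted p was 0.191 without young C, 0.106 without young B, 0.118 without aged A, 0.0585 without aged B and 0.126 without aged C. Spp1 alone took 1.24 ± 0.34% of all counts in young samples (0.912 to 1.59%) and 0.615 ± 0.103% in aged samples (0.504 to 0.708%). The 10 genes together took 2.31 ± 0.36% in young and 1.70 ± 0.08% in aged samples. Without Spp1 the other 9 took 1.07 ± 0.09% and 1.08 ± 0.04%, a sum in which the rise of Plin2 stands against the falls of less abundant genes.

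Lpl (chr8:68880491-68907449, plus strand) showed the largest fall of the 10. It was measured at 356, 307 and 282 CPM in young A, B and C and at 67.1, 105 and 64.7 CPM in aged A, B and C. Every young sample was at least 282 CPM and every aged sample at most 105 CPM, with aged B the highest of its group. The mean fell from 315 ± 37.7 to 78.8 ± 22.4 CPM, that is by a log2 fold change of -2.00 (SE 0.22, interval -2.48 to -1.51, adjusted p = 0.00136). The call held whichever library was left out, with an adjusted p of at most 0.0133.

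Fabp5 and Fabp4 lie 187479 bases apart on chromosome 3, and they differed in both level and change. Fabp5 (chr3:10012548-10016608, plus strand) was measured at 532, 749.9 and 765 CPM in young A, B and C and at 204, 328 and 269 CPM in aged A, B and C. The groups were well apart, with aged B again the highest aged sample. The mean fell from 682 ± 130.1 to 267 ± 61.8 CPM, that is by a log2 fold change of -1.35 (SE 0.22, interval -1.85 to -0.86, adjusted p = 0.00657, and at most 0.0472 with any 1 library left out). Fabp4 (chr3:10204088-10208577, minus strand) was measured at only 9.29, 4.93 and 12.4 CPM in young A, B and C and at 5.88, 21.5 and 9.57 CPM in aged A, B and C, from 84 to 338 counts a library. The groups overlapped and aged B was the high sample. The log2 fold change of Fabp4 was 0.48 (SE 0.45, interval -0.53 to 1.48, adjusted p = 0.486), and it turned to -0.18 when aged B was left out. Fabp4 is best known from adipocytes and endothelial cells, and of those lists Adipoq had 0 to 9 counts a library, Retn 1 to 10, Cfd 0 to 67 (highest in young C), Lipe 52 to 89 and Cdh5 0 to 12. Of the 10 endothelial markers, 5 had their highest count in aged B (Tie1, Tek, Emcn, Esam and Egfl7, at 9 to 34 counts), 2 in aged C (Pecam1 and Flt1), 2 in young C (Kdr and Cldn5) and 1 in young B (Cdh5). The part of other cells in the Fabp4 value of aged B was not tested.

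Plin2 (chr4:86648386-86670061, minus strand) was the single member that rose. It was measured at 3503, 2411 and 3087 CPM in young A, B and C and at 5100.0, 5772 and 5264 CPM in aged A, B and C. The lowest aged sample stood well above the highest young sample, young A. The mean rose from 3000.3 ± 551 to 5379 ± 350.4 CPM, that is by a log2 fold change of 0.84 (SE 0.20, interval 0.40 to 1.28, adjusted p = 0.0210). The call ended without young B (adjusted p = 0.0784), without young C (0.0862) and without aged C (0.0729).

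Of the 2 tetraspanins, Cd63 fell and Cd9 was not called. Cd63 (chr10:128900989-128912823, plus strand) was measured at 579.5, 431 and 509 CPM in young A, B and C and at 224, 316 and 258 CPM in aged A, B and C. No aged sample reached the lowest young sample, young B. The mean fell from 507 ± 74.1 to 266 ± 46.6 CPM, that is by a log2 fold change of -0.93 (SE 0.19, interval -1.35 to -0.50, adjusted p = 0.0141), which was no longer called without young C (0.0704) or aged C (0.0623). Reads of Cd63 are shared with the processed pseudogene Cd63-ps, and Cd63 received 42.0 to 44.6% of the counts of the pair in each library. With both rows summed, the level fell from 1172 ± 137 to 617 ± 100.3 CPM, that is by a log2 fold change of -0.93 (SE 0.19, adjusted p = 0.0134). The change was thus about the same however the reads were split, while the level of Cd63 alone is uncertain.

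Cd9 (chr6:125460266-125494792, minus strand) was measured at 559, 662 and 705 CPM in young A, B and C and at 1022, 663 and 948 CPM in aged A, B and C. Aged A and C stood above all young samples but aged B lay among them. The mean was 642 ± 75.1 CPM in the young and 877 ± 189.5 CPM in the aged, with a log2 fold change of 0.45 (SE 0.20, interval 0.0005 to 0.90, adjusted p = 0.144, and 0.0552 to 0.336 over the alternatives), so no change was called. The fold change was above 0 in all 12 alternatives. Lgals3 (chr14:47367751-47386161, plus strand) was measured at 4075, 3473 and 5199.6 CPM in young A, B and C and at 5127, 3538 and 4554 CPM in aged A, B and C. The groups covered nearly the same range. The log2 fold change of Lgals3 was 0.05 (SE 0.22, interval -0.44 to 0.54, adjusted p = 0.891), and an interval of this width leaves room for changes of either sign.

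**Figure D2:**
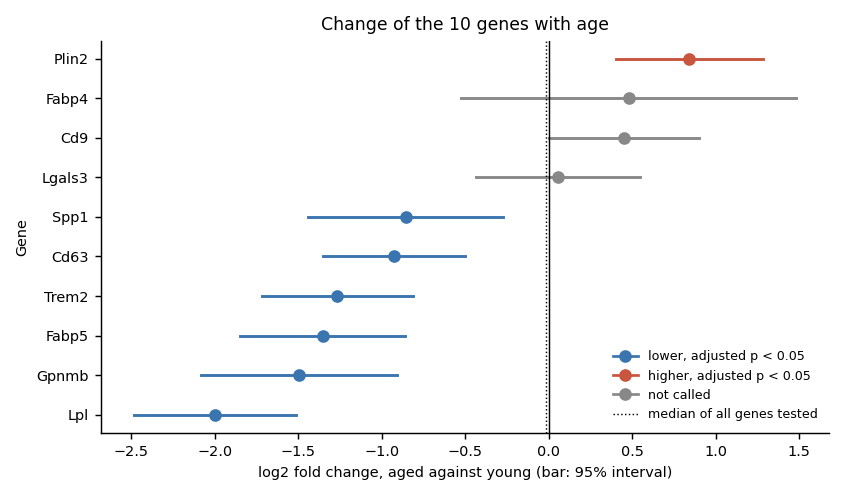
Log2 fold change of each gene, aged against young (x axis), with its 95% interval as a line; blue genes were called lower, red higher and grey not called, and the dotted line is the median of all genes tested. Lpl lies furthest to the left at -2.00, and Plin2 is the single called gene to the right of 0, at 0.84.

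Of the 10 genes, 6 were called lower at an adjusted p under 0.05, where 7.97% of all genes tested were called lower, and 1 was called higher, where 9.73% of all genes were. At the study's stricter threshold, which also asks for more than a 2-fold change, 4 genes (Lpl, Gpnmb, Fabp5 and Trem2) were lower, beside 4.2% of all genes, and none was higher, beside 4.59%. The samples of the age groups did not overlap for 7 of the 10 genes, beside 38.2% of all genes. For each of those 7 the exact permutation test over the 6 samples gave p = 0.1, the smallest value that 3 samples against 3 can give. The median log2 fold change over the 10 genes was -0.89, beside -0.02 over all genes tested.

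**Figure D3:**
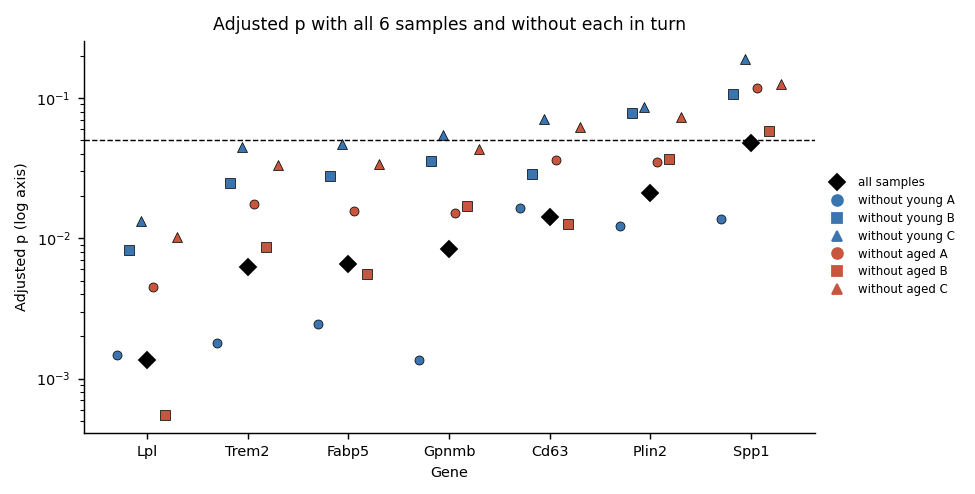
Adjusted p (y axis, log scale) of the 7 called genes with all 6 samples (diamond) and with each sample left out in turn (blue young, red aged; circle A, square B, triangle C); the dashed line is at 0.05. Lpl, Trem2 and Fabp5 stayed under the line in all 6 cases, and Spp1 did so in 1.

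With 1 sample left out, between 3 and 7 of the 7 calls were kept. All 7 were kept without young A, 6 without aged A or aged B, 5 without young B, 4 without aged C and 3 (Lpl, Trem2 and Fabp5) without young C. Without young C, 218 genes in all were called, and 2702 without young A. The direction of each of the 7 was the same throughout.

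The order of the levels was judged per length, as CPM per kilobase of the main transcript. In young samples Spp1 led with 7857 ± 2639, followed by Lgals3 with 2994 ± 618 and Plin2 with 1589 ± 292. In aged samples Spp1 stood at 4335 ± 659, Lgals3 at 3105 ± 567 and Plin2 at 2849 ± 186, so that Plin2 and Lgals3 no longer differed beyond their spread. Fabp5, Cd9 and Cd63 followed in young samples, at 691 ± 132, 523 ± 61.1 and 457 ± 66.8. The spread of Cd9 overlapped that of Fabp5 and that of Cd63 in the young, whereas in aged samples Cd9 stood at 714 ± 154.4 and Fabp5 and Cd63 at 270.5 ± 62.6 and 240.0 ± 42.0. The place of Cd63 depends on how its reads were split, since with Cd63-ps summed it stood at 1057 ± 124 in young and 557 ± 90.4 in aged samples. Trem2 went from 332 ± 78.1 to 138 ± 14.6, Gpnmb from 81.1 ± 27.7 to 28.8 ± 5.22 and Lpl from 76.5 ± 9.15 to 19.2 ± 5.45. Fabp4 was the lowest in both groups, at 9.91 ± 4.20 and 13.8 ± 9.13. By rank among all genes with a length, Spp1 was number 7 in young and 16 in aged samples, Trem2 went from 233 to 555 and Lpl from 918 to 2761.

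The genes also differed in how they moved between samples of the same age. Among the 6 genes that fell, young A was the lowest young sample in 4 (Trem2, Gpnmb, Spp1 and Fabp5), and aged B was the highest aged sample in 5, all but Gpnmb. Lpl and Cd63 ran the other way among young samples, with young A the highest. With each gene centred within its age group, the root mean square difference on the log2 scale was smallest for Cd63 and Plin2, at 0.10, followed by Trem2 and Fabp5 at 0.13, Cd63 and Lpl at 0.16 and Lgals3 and Cd9 at 0.17. Trem2 and Spp1 differed by 0.22, Trem2 and Gpnmb by 0.24 and Lpl and Plin2 by 0.22. The least alike pairs all held the low gene Fabp4, up to 0.83. Centred over all 6 samples, which takes in the age difference, Trem2 and Fabp5 were nearest at 0.14, and Cd63 and Plin2, which changed in opposite directions with age, differed by 0.90 and Lpl and Plin2 by 1.46.

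**Figure D4:**
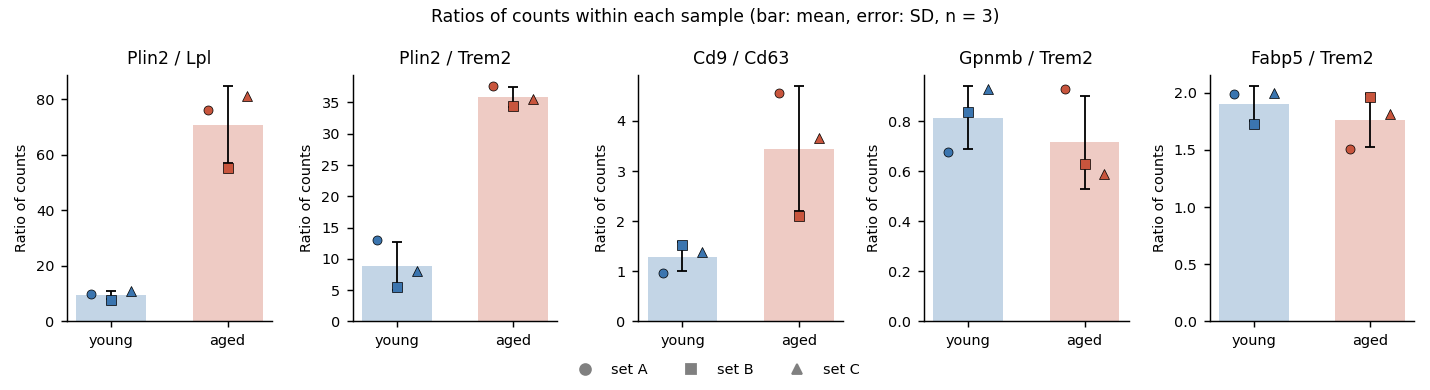
Ratio of the counts of 2 genes within each sample (y axis, starting at 0) for 5 pairs in young (blue) and aged (red) samples, with the mean as a bar and the SD as a line, n = 3. The ratio of Plin2 to Lpl lay between 7.86 and 10.9 in young samples and between 55.1 and 81.3 in aged samples, while those of Gpnmb and of Fabp5 to Trem2 overlapped.

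Ratios of counts within a sample do not depend on the scaling between libraries. The ratio of Plin2 to Lpl was 9.84, 7.86 and 10.9 in young A, B and C and 76.0, 55.1 and 81.3 in aged A, B and C, with means of 9.55 ± 1.56 and 70.8 ± 13.8 (exact permutation p = 0.1, the smallest possible with n = 3 each). The ratio of Plin2 to Trem2 went from 8.89 ± 3.83 in the young to 35.9 ± 1.57 in the aged group, and that of Cd9 to Cd63 was 1.29 ± 0.30 and 3.44 ± 1.25, again without overlap. Fabp5 to Fabp4 went from 90.4 ± 53.6 to 26.0 ± 9.91 and Lgals3 to Gpnmb from 15.5 ± 6.46 to 42.1 ± 9.35. The ratio of Lpl to Trem2 was 0.924 ± 0.351 in young and 0.519 ± 0.097 in aged samples, also without overlap. By contrast, the ratios of other falling genes to Trem2 overlapped between the ages. Fabp5 to Trem2 was 1.90 ± 0.15 and 1.76 ± 0.23 (exact permutation p = 0.5, n = 3), Gpnmb to Trem2 0.815 ± 0.126 and 0.717 ± 0.185 (p = 0.5) and Spp1 to Trem2 32.8 ± 8.26 and 43.3 ± 3.70 (p = 0.2).

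Genes that act with Trem2 were read beside it. Of 18 genes for adaptors, kinases, shedding enzymes and related receptors, 4 rose and 1 fell, with a median log2 fold change of 0.21, beside 9.73% of all genes called higher and 7.97% lower. Tyrobp, the adaptor of TREM2, stood at 497 ± 46.6 CPM in the young and 468 ± 58.6 CPM in the aged group, with a log2 fold change of -0.09 (SE 0.17, adjusted p = 0.748). Syk, the kinase that TYROBP recruits, rose from 66.6 ± 28.0 to 144 ± 28.5 CPM (log2 fold change 1.11, SE 0.27, adjusted p = 0.0237). Adam10, a protease that sheds the TREM2 ectodomain, rose by 0.90 (SE 0.19, adjusted p = 0.0156), and Adam17, another, had 0.56 (SE 0.18, adjusted p = 0.0503) and was not called. Trem1 and Trem3, activating receptors of the same family, rose by 1.27 and 1.03. Both were lowest among aged samples in aged B, as was the summed level of 12 neutrophil markers. That sum was 1582, 926 and 1558 CPM in aged A, B and C and 717, 1217 and 1170 CPM in young A, B and C. In those young samples Trem1 stood at 164, 140 and 125 CPM and Trem3 at 10.1, 10.9 and 12.1 CPM. The part of neutrophils in the rise of Trem1 and Trem3 was not tested. Ms4a7, a membrane protein of the family linked to soluble TREM2, fell from 672 ± 53.8 to 224 ± 28.7 CPM (log2 fold change -1.59, SE 0.17). Without young C or without aged C, Ms4a7 alone of these 5 kept its call, and the highest adjusted p was 0.111 and 0.0668. Without young B, Adam10 and Ms4a7 kept it (highest 0.0861), and without aged A those and Trem1 did (highest 0.0587). All 5 kept it without aged B (highest 0.0339) or young A.

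While Spp1 fell, genes for receptors of its product rose or were not called. Of 10 genes, which cover receptors of osteopontin and 2 further ligands of the same integrins, 4 rose and none fell, with a median of 0.86. The shares over all genes tested were 9.73% called higher and 7.97% lower. Cd44 rose from 558 ± 164 to 1399 ± 42.2 CPM (log2 fold change 1.33, SE 0.22, adjusted p = 0.00738), and Itga5, an integrin subunit of the fibronectin receptor, from 49.3 ± 19.7 to 162 ± 16.4 CPM. The ligands Thbs1 and Fn1 rose by 2.13 (SE 0.41) and 0.96 (SE 0.17), Thbs1 from 3854 ± 2701 to 16854 ± 1878 CPM. Itgav (0.79, SE 0.32, adjusted p = 0.106), Itgb1 (0.12, SE 0.15) and Itgb3 (0.92, SE 0.58) were not called, nor was Itga9 (-0.78, SE 0.33, adjusted p = 0.125), the lowest of the list. Without young C, Itga5 alone kept its call (highest adjusted p of the 4, 0.0688), and all 4 kept it without each of the other libraries in turn.

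**Figure D5:**
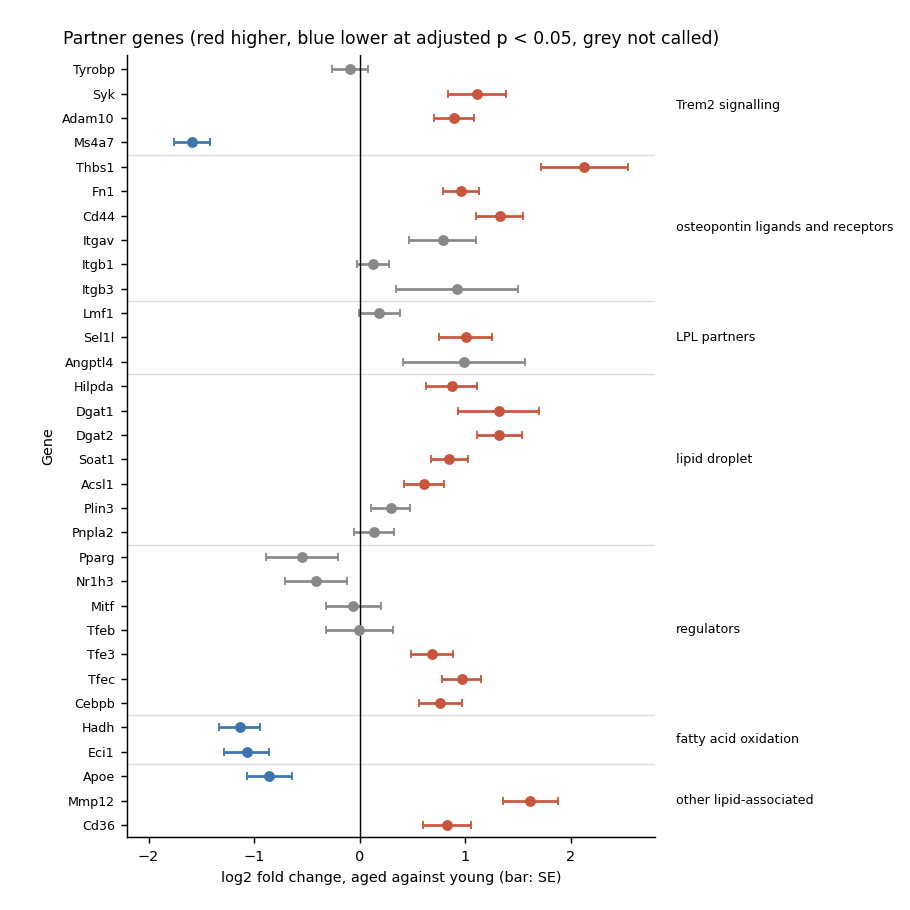
Log2 fold change, aged against young (x axis), of genes that act with the 10 genes, with the SE as a line; red genes were called higher, blue lower and grey not called. Of the 7 lipid droplet genes drawn, Dgat1 and Dgat2 lie furthest to the right at 1.32, and Hadh and Eci1 lie at -1.14 and -1.07.

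Among genes for the coat and turnover of lipid droplets, 8 of 17 tested rose and none fell, with a median log2 fold change of 0.41. Plin2 is 1 of the 8. Of all genes tested, 9.73% were called higher and 7.97% lower. Dgat2 and Dgat1, which make triglyceride, rose by 1.32 (SE 0.21, adjusted p = 0.00627) and 1.32 (SE 0.39, adjusted p = 0.0411). Soat1, which makes cholesteryl ester, rose by 0.85 (SE 0.18), and Hilpda, an inhibitor of droplet lipolysis, rose from 1019.9 ± 292 to 1864 ± 379 CPM (0.87, SE 0.24). Acsl1, which activates fatty acids, rose by 0.61 (SE 0.19, adjusted p = 0.0496), and Mgll by 1.87 at a level near 1 CPM. The other coat gene tested, Plin3, had 0.29 (SE 0.19, adjusted p = 0.291), and Pnpla2, the lipase that opens triglyceride stores, 0.14 (SE 0.19). Of 8 genes tested that act with LPL, 2 rose and none fell, beside 9.73% of all genes called higher and 7.97% lower. Sel1l, which LPL needs to leave the endoplasmic reticulum, rose from 55.5 ± 11.4 to 111 ± 34.7 CPM. The chaperone Lmf1 (0.19, SE 0.20), the inhibitor Angptl4 (0.99, SE 0.58) and the cofactor Apoc2 (-0.26, SE 0.24) were not called, and Angptl4 turned to -0.16 without aged B. In fatty acid oxidation, 2 of 17 fell, beside 7.97% of all genes, Hadh by 1.14 (SE 0.19) and Eci1 by 1.07 (SE 0.21), with a median of -0.08. Of the 11 calls in these lists besides Plin2, 1 (Dgat2) was kept without young C, 3 without aged C, 5 without young B, 7 without aged A and 8 without aged B. The highest adjusted p among them was 0.177, 0.132, 0.138, 0.116 and 0.0953 in that order.

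Relatives of the 10 genes showed no common direction. Their counts stand beside 9.73% of all genes called higher and 7.97% lower. Of 4 fatty acid-binding protein genes tested, Fabp5 alone was called. Of 5 genes tested among the galectins and the galectin-3 ligand Lgals3bp, 2 fell, Lgals3bp by 1.28 (SE 0.16) and Lgals9 by 0.78 (SE 0.17). Of 16 tetraspanins, 3 rose (Tspan5 by 0.84, Cd53 by 0.72 and Tspan3 by 0.57) and 2 fell (Tspan4 by 1.03, and Cd63), with a median of 0.17. Of these 6 calls besides Fabp5 and Cd63, Lgals3bp alone was kept without young B, young C or aged C (highest adjusted p 0.129, 0.134 and 0.130 in that order), 4 without aged A (highest 0.0627) and 3 without aged B (highest 0.110).

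Of 18 transcription factors known to act on genes of this set, 5 rose and 1 fell, with a median of 0.18. Among all genes tested, 9.73% were called higher and 7.97% lower. Pparg and Nr1h3, lipid-sensing nuclear receptors, had log2 fold changes of -0.55 (SE 0.34, adjusted p = 0.283) and -0.41 (SE 0.30, adjusted p = 0.352). Mitf (-0.06, SE 0.26), a factor known to act on Gpnmb, and its relative Tfeb (-0.00, SE 0.32) were not called, and both changed sign with the libraries or tool used. Their relatives Tfe3 and Tfec rose by 0.68 (SE 0.20) and 0.97 (SE 0.19). Cebpb, a factor of myeloid cells, rose by 0.76 (SE 0.20) and Srebf2, which drives sterol genes, by 0.58 (SE 0.16). Bhlhe41 fell by 2.14, from 1.27 ± 0.34 to 0.28 ± 0.14 CPM. None of these 6 calls was kept without young C (highest adjusted p 0.158), Tfec alone without young B (0.102) or aged C (0.116), 3 without aged A (0.102) and 4 without aged B (0.0804).

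Of 26 other genes often listed for lipid-laden macrophages, 2 rose and 6 fell, with a median of -0.33, beside 9.73% of all genes called higher and 7.97% lower. Apoe, the apolipoprotein that TREM2 binds, fell from 14081 ± 987 to 7771 ± 1526 CPM (log2 fold change -0.86, SE 0.21, adjusted p = 0.0244). Syngr1 fell by 1.78, Atp6v0d2, a subunit of the lysosomal proton pump, by 1.39, and Creg1 by 0.50. Mmp12, the macrophage elastase, rose from 274 ± 104 to 840 ± 145 CPM (1.62, SE 0.26, adjusted p = 0.00627), and Cd36, a receptor for oxidised lipoprotein and fatty acids, from 342 ± 8.92 to 606 ± 208 CPM (0.83, SE 0.23, adjusted p = 0.0346). Without aged B the log2 fold change of Cd36 was 0.52 and no longer called (adjusted p = 0.0804). Mmp12 kept its call whichever library was left out. The other 7 did so less widely: 1 of the 8, Mmp12, was kept without young C (highest adjusted p 0.144), 2 without aged C (0.151), 3 without young B (0.122), aged A (0.0821) or aged B (0.109), and 7 without young A (0.0614).

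Genes with the profile most like those of Trem2, Gpnmb and Spp1 over the 6 samples were sought among 6587 genes of at least 10 CPM. Nearest to Trem2 were Cd48, Dcxr and Pacc1, with root mean square differences of 0.11, 0.12 and 0.12 on the centred log2 scale. Nearest to Gpnmb were Prxl2b, Gdf3 and Htra2, at 0.15, 0.23 and 0.23. Nearest to Spp1 were Cab39l, Rars2 and Washc3, at 0.10, 0.11 and 0.11. These are descriptions over samples that fall into 2 age groups, so any gene with a like age difference is near.

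Markers of other cells that could carry the same transcripts were read beside the 10 genes. Of 9 adipocyte markers, Plin1, Lep, Cidec, Slc2a4 and Acvr1c were not in the table and the other 4 summed to 5.59 to 8.98 CPM in the young and 3.95 to 5.92 CPM in the aged group. Beside them, Plin2 stood at 2411 CPM or more, Lpl at 64.7 CPM or more and Fabp4 at 4.93 to 21.5 CPM. Of 8 melanocyte and Schwann cell markers, 7 were not in the table and Pmel had 1 to 17 counts a library, beside Gpnmb at 1417 counts or more. The 10 endothelial markers summed to 11.3 to 12.9 CPM in the young and 27.3 to 33.7 CPM in the aged group. Pecam1, which made up most of that sum, rose by 1.69 on the log2 scale, while Cldn5 had 0 to 5 counts a library. The 10 keratinocyte markers in the table summed to 2.05 to 3.65 CPM in the young and to 10.1, 219 and 3.64 CPM in aged A, B and C, and both genes tested, Krt14 and Sfn, were called higher. The 10 fibroblast markers summed to 39.2 to 64.3 CPM in the young and 21.2 to 194 CPM in the aged group, highest in aged B, and none of 8 tested was called. Of 7 platelet markers, 4 were not in the table, and Ppbp rose from 412 ± 99.9 to 1671 ± 957 CPM, while Itga2b had 0 to 13 counts a library. Neutrophils were not gated out, and their markers summed to 717 to 1217 CPM in young and 926 to 1582 CPM in aged samples. Of the 12 tested, 4 were called higher, beside 9.73% of all genes. Langerhans and dendritic markers summed to 86.1 to 165 CPM in young and 106 to 133 CPM in aged samples, highest in the A library of each age. Xcr1 among them had 348, 9 and 28 counts in young A, B and C. In aged A, B and C it had 492, 73 and 192. No Langerhans or dendritic marker (8 tested) was called. Nor was a lymphocyte or mast cell marker (5 tested), but libraries differed: the mast cell gene Cpa3 had 425, 258 and 111 counts in young A, B and C and 252, 0 and 0 in aged A, B and C, and Mcpt4 and Cma1 were likewise at 0 in aged B and C only. Aged B, the sample with the highest keratinocyte and fibroblast sums, was also the highest aged sample in 5 of the 6 genes that fell, and without it the same genes apart from Spp1 were called. The part of other cells in the remaining differences was not tested.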

How the data were processed

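Wound macrophage RNA from 3 young and 3 aged samples was sequenced as paired reads. The authors aligned reads with STAR 2.7.3a to mm10 and quantified Ensembl release 102 transcripts in Partek Flow. The deposited values are estimated counts per gene, of which 30.7 to 34.0% per library were not whole, and genes totalling under 10 counts are not in the table. A second deposited table, with the authors' scaled values, fold changes and p-values from DESeq2, was not used.

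Estimated counts were rounded and tested in edgeR 4.0.16 (R 4.3.3): filterByExpr, trimmed-mean scaling, a quasi-likelihood test between the ages without covariates, and Benjamini-Hochberg correction across the 11878 genes kept. Genes with an adjusted p under 0.05 were called, and the study's threshold of more than 2-fold is given beside it. The interval of a fold change comes from the F statistic of that test. The biological coefficient of variation was 0.239. Replicate libraries differed by more than sampling noise, and none was merged. Counts without molecular identifiers are not independent molecules. On simulated data of 11959 genes for this comparison, edgeR recovered 1 of 65 genes changed 1.5-fold, 25 of 67 changed 2-fold and 68 of 68 changed 4-fold, with 3 false calls of 97. The simulation gave every gene the same dispersion and held no outlying library. Its false calls therefore give no rate for the calls reported here. Lengths are those of the main GENCODE M21 transcript, and promoters come from RefSeq on GRCm38.p6.

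The 10 genes and the lists were chosen with earlier results of these data known. From each pathway list the text names every called gene if at most 6, otherwise the 3 highest and 3 lowest called, and direct partners whether called or not. Some genes that this rule names are counted in their lists but not reported here. Alternatives were DESeq2 1.42.0, limma 3.58.1 (voom), DESeq2 size factors, other filters, a replicate block and leaving out each sample. Summing Cd63 with Cd63-ps was chosen after seeing the data.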

Additional observations from a re-analysis of the deposited data

How the results depend on the processing

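With all libraries, 2103 genes were called. DESeq2 size factors, the DESeq2 test and both other filters on low counts kept this number within 1.5 times, and limma-voom with sample weights called 3646. Asking also for more than a 2-fold change left 1044, and an adjusted p under 0.01 left 306. Leaving out 1 library gave 218 (without young C) to 2702 (without young A). All of the tools, scalings and filters called the same number of the 10 genes, 1 higher and 6 lower. With more than 2-fold required, 0 were higher and 4 lower. Leaving out 1 library gave 0 to 1 higher and 3 to 6 lower.

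The set letters were read as replicate numbers, and whether they also mark a batch or pairs was not tested. Deviations of the A, B and C pairs correlated at 0.18, -0.02 and 0.11 across genes, and those of unlike letters at -0.22 to 0.14. Within an age, the chi-square per gene was higher for pairs with A (115 and 120 young, 121 and 95.3 aged). It was 31.9 for young B with C and 45.7 for aged B with C. With the letter as a replicate block 2114 genes were called, and again 1 higher and 6 lower of the 10.

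The fold changes of 7 genes that were not called changed sign. Fabp4 ran from -0.18 to 0.81 when 1 library was left out, Lgals3 from -0.068 to 0.22 (and -0.066 in limma-voom), Tyrobp from -0.14 to 0.026, Angptl4 from -0.16 to 1.43, Mitf from -0.23 to 0.19, Tfeb from -0.24 to 0.42 and Pnpla2 from -0.078 to 0.28. Tfeb was also 0.0018 in DESeq2, 0.15 in limma-voom and 0.043 with the replicate block. The cause of these moves was not tested.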
